A study of Mus musculus with 8 samples.

Results

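The 10 genes described here modify and escort newly made collagen chains in the endoplasmic reticulum: the prolyl 4-hydroxylases P4ha1, P4ha2 and P4ha3, the prolyl 3-hydroxylase P3h1 with its partner Crtap and the related P3h4, the lysyl hydroxylases Plod1, Plod2 and Plod3, and the collagen chaperone Serpinh1. They were chosen by symbol. All probe sets annotated with exactly 1 of these symbols were taken, 15 of the 45037 probe sets on the array besides controls. Each of the 10 genes, of 18193 named on the array, had at least 1. Of the 15, 14 passed a filter on low signal. Earlier results of these data were known when the family was chosen: the values of Plod2 in the comparison of genotypes had already been described. The differences between genotypes are therefore given as a description.

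Palatal shelves, the outgrowths of the upper jaw that fuse into the palate, were dissected from mouse embryos at embryonic day 14.5, and their RNA was read on 8 Affymetrix arrays. Of these, 4 carried R26Pax3/Pax3 (replicates 1, 3, 4 and 7) and 4 were wild type littermates (replicates 2, 6, 8 and 11), all from a C57BL/6 by SV129 cross. R26Pax3 is an allele of the Rosa26 locus that carries Pax3, a transcription factor of neural crest and muscle precursors. The labels name no driver of the allele and do not say which shelf cells expressed it, or whether a sample was 1 embryo or a pool, so p-values measure only the spread between these samples.

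Collagen chains are hydroxylated before they fold. Prolyl 4-hydroxylation makes the triple helix stable at body temperature, prolyl 3-hydroxylation acts on few prolines, and hydroxylated lysines carry sugars and form the cross-links of the mature fibre. These hydroxylases use iron, ascorbate, 2-oxoglutarate and oxygen, and several of them are known targets of the hypoxia-inducible factors. The shelves are built of collagen-rich mesenchyme in which bone forms.

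The labels were checked first. The brightest probe set of Pax3 read 619 ± 88.8 with the allele and 162 ± 14.6 without it (SD, n = 4 each, limma adjusted p = 1.70e-05). A second probe set was also higher, at 387 ± 73.1 and 87.0 ± 15.5, while the third, annotated with the same symbol, read 82.5 ± 21.5 and 103 ± 14.0 with overlapping groups. Gt(ROSA)26Sor, the transcript of the targeted locus, read 19.8 ± 7.46 and 337 ± 53.6. None of the 10 genes lies on chromosome 6, which holds Rosa26, in the RefSeq table of GRCm38.p6. Array medians lay between 43.5 and 44.8, 0 pairs of arrays were identical, and the 3' to 5' ratio of Actb lay between 1.39 and 1.48. The 10 palatal mesenchyme markers listed, among them Osr2, Shox2, Tbx22 and Barx1, all passed the filter, and their summed signal ranged from 8029 to 8793 in R26Pax3/Pax3 and from 7886 to 8709 in wild type. Each array is called below by its genotype and replicate. The first 4 arrays deposited were R26Pax3/Pax3 1 and 3 and wild type 6 and 8, and the last 4 were R26Pax3/Pax3 4 and 7 and wild type 2 and 11. The labels name no batch, but the comparison is also given within these sets, which hold 2 arrays of each genotype. This is done for every kept member probe set, and for only part of the other genes and lists.

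The family had lower means in R26Pax3/Pax3 on 13 of 14 probe sets, with Plod3 the exception. The median log2 fold change, R26Pax3/Pax3 minus wild type on log2(signal + 16), was -0.21 over the 14, against 0.00093 over all 27021 probe sets tested, of which 49.7% were lower. On 3 of the 14, for P4ha1, P4ha2 and Plod2, every R26Pax3/Pax3 array lay below every wild type array, where 2.73% of all probe sets did not overlap and 1.34% were lower without overlap. None of the 14 was called by limma at a Benjamini-Hochberg adjusted p under 0.05, and the smallest adjusted p was 0.174. Over all probe sets 4 of 27021, or 0.0148%, were called, with 0.0074% lower and 0.0074% higher, and 9 were called without R26Pax3/Pax3 replicate 3. At an unadjusted p under 0.05 there were 6 of the 14, all lower, against 4.86% of all probe sets, and 2.44% were lower at that level. Since the comparison was known when the family was chosen, nothing is read from these counts.

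**Figure D1:**
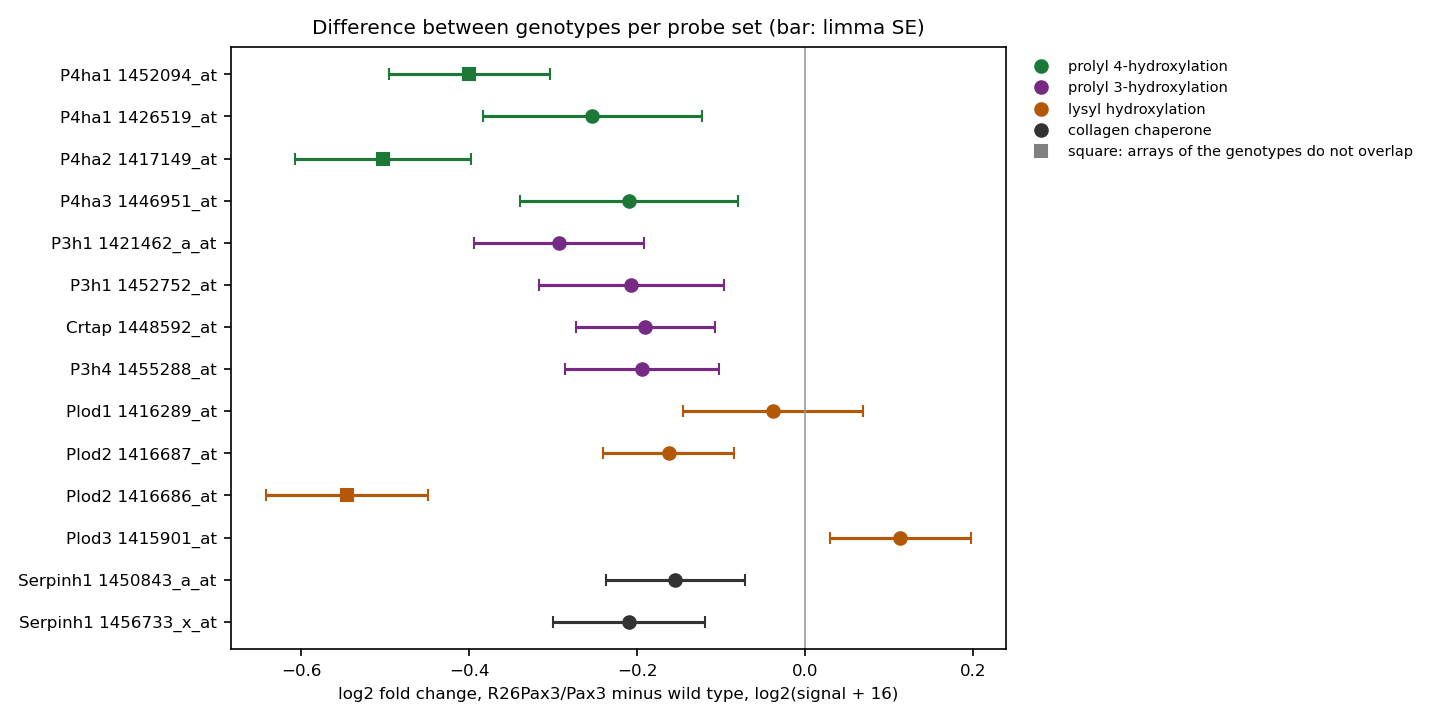
Log2 fold change of each kept probe set (x axis, R26Pax3/Pax3 minus wild type on log2(signal + 16)), coloured by role, with limma's standard error as the bar. Squares mark the 3 probe sets whose arrays do not overlap between genotypes, for P4ha1, P4ha2 and Plod2, and Plod3 is the 1 probe set to the right of 0.

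The prolyl 4-hydroxylase subunits had the lowest median of the roles. P4ha1, P4ha2 and P4ha3 are alternative catalytic alpha subunits, each of which works in a tetramer with P4hb. All 4 of their probe sets were lower in R26Pax3/Pax3, with a median log2 fold change of -0.33.

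P4ha1, the main alpha subunit of most tissues, read 552, 567, 583 and 557 in R26Pax3/Pax3 replicates 1, 3, 4 and 7 on its brighter probe set. In wild type replicates 2, 6, 8 and 11 it read 726, 730, 660 and 906. The R26Pax3/Pax3 arrays lay close together, all below the lowest wild type array, and wild type 11 was the highest. The means were 565 ± 13.8 and 755 ± 105 (SD, n = 4 each), with a log2 fold change of -0.40 (SE 0.0960). The dimmer probe set read 259 ± 13.1 and 316 ± 69.3, a log2 fold change of -0.25 (SE 0.130), which was -0.12 without wild type replicate 11. Its groups overlapped, because wild type 8, at 252, lay below 3 of the R26Pax3/Pax3 arrays, and wild type 11, at 414, stood above the rest.

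P4ha2, a second alpha subunit prominent in cartilage and bone, had 1 probe set. It read 562, 437, 466 and 538 in R26Pax3/Pax3 replicates 1, 3, 4 and 7, and 640, 807, 667 and 749 in wild type replicates 2, 6, 8 and 11. The groups did not overlap. The means were 501 ± 58.7 and 716 ± 76.4 (SD, n = 4 each), 1.43-fold higher in wild type, with a log2 fold change of -0.50 (SE 0.105). The difference was -0.55 in the first set of arrays and -0.45 in the last, so the lower mean was present in both.

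P4ha3, the third alpha subunit, was dim. It read 90 to 120 in R26Pax3/Pax3 and 105 to 153 in wild type, a log2 fold change of -0.21 (SE 0.129) with overlapping groups. Without wild type replicate 8 it was -0.12.

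P4ha2 and the brighter probe set of P4ha1 had groups that did not overlap, and Plod3 was the member with a higher mean. The stretch before the transcription start is shown for these 3 genes, so that they can be compared. Each is 250 bases from RefSeq, assembly GRCm38.p6, read 5′ to 3′ towards the start site: P4ha1 at chr10:59323046-59323295 (plus strand), P4ha2 at chr11:54100674-54100923 (plus strand) and Plod3 at chr5:136986769-136987018 (plus strand). Capitals mark ACGTG or GCGTG on either strand (CACGT or CACGC as printed), the core letters of the hypoxia response element. Of these, ACGTG also lies within the E-box CACGTG, and GCGTG does not.
P4ha1: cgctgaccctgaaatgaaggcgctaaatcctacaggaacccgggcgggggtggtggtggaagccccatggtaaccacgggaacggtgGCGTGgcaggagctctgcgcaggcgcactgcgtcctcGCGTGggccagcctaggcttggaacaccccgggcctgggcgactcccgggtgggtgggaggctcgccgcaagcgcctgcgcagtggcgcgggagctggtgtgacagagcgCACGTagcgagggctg
P4ha2: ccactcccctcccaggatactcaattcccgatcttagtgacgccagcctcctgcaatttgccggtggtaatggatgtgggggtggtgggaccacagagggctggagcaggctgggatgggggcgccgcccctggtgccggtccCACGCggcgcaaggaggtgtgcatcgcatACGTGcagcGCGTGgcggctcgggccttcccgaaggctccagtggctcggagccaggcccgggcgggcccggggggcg
Plod3: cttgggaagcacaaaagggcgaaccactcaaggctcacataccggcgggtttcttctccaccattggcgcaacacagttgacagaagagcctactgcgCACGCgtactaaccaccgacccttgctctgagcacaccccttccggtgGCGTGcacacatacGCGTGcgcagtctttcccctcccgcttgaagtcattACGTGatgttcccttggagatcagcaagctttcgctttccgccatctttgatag
P4ha1 and P4ha2 hold 3 matches each, and Plod3 holds 4. Over all 32851 windows of this length in the table, 38.6% hold at least 1 match, 6.58% at least 3 and 2.58% at least 4. Of the 9 windows of members, which cover 8 genes, 8 hold a match and that of P4ha3 holds none. A match is a description of the letters only. Plod2 and P3h4 had no entry.

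**Figure D2:**
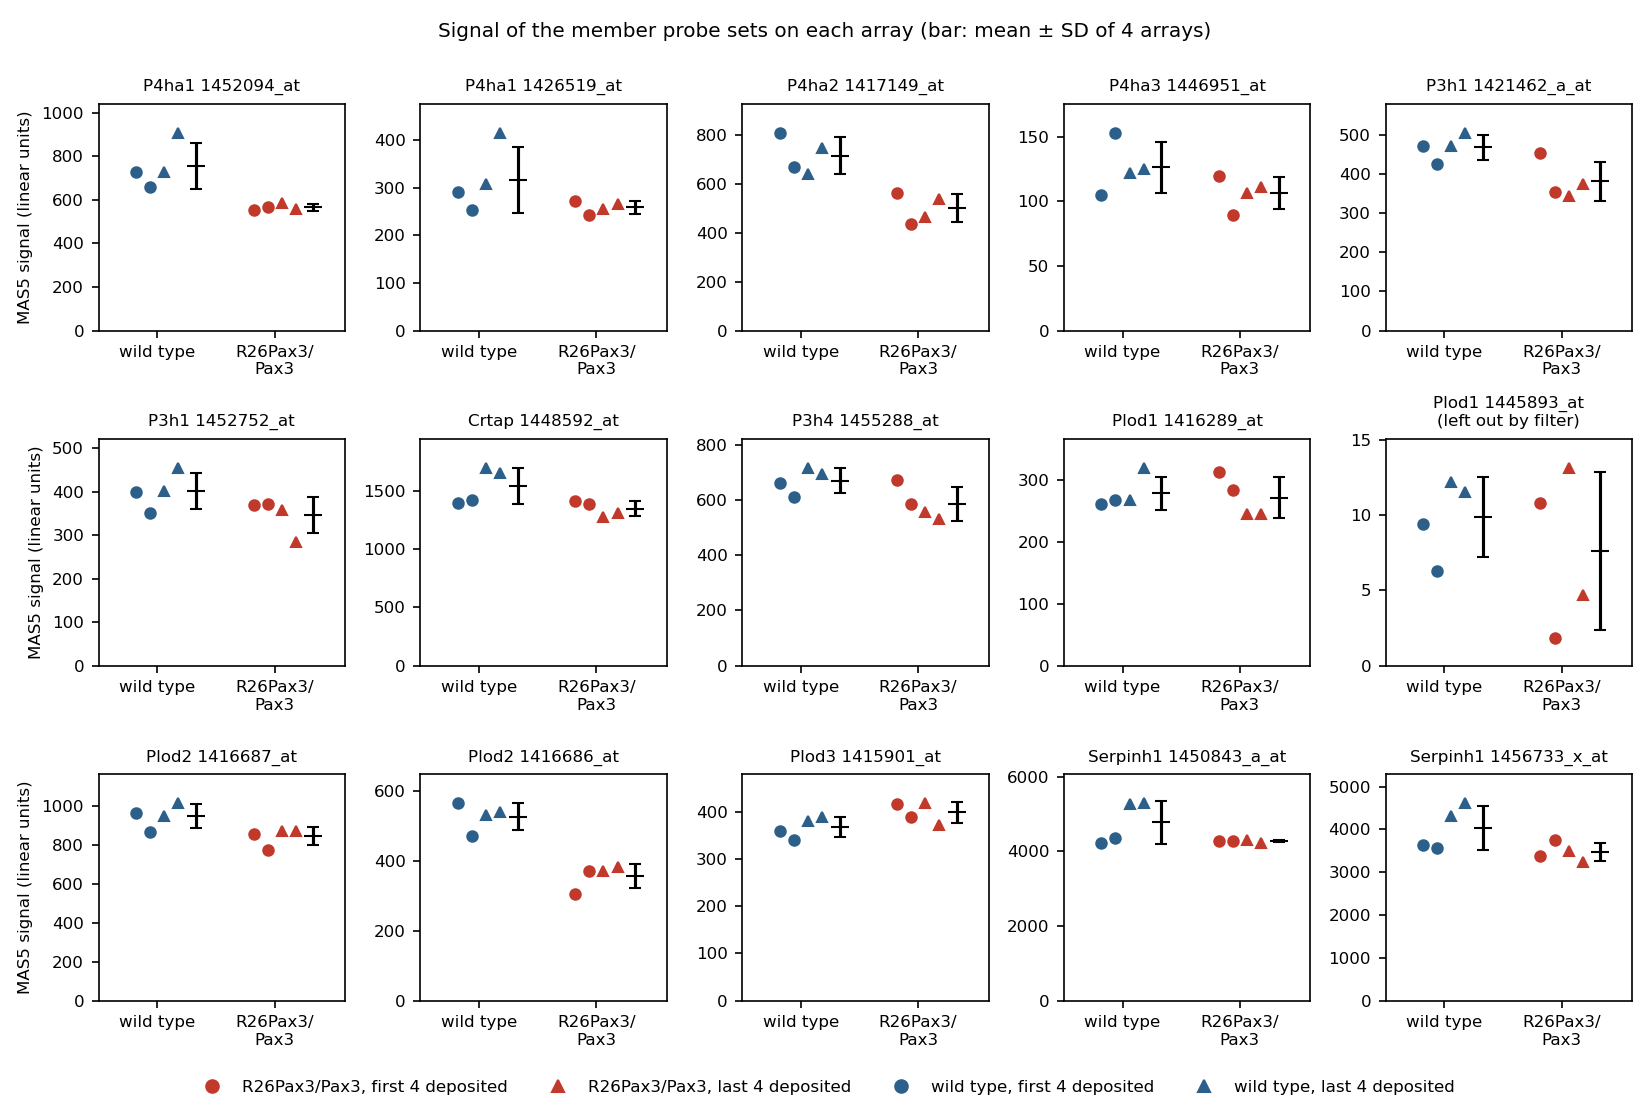
MAS5 signal of the 15 member probe sets on each array (y axis, linear units from 0), wild type in blue and R26Pax3/Pax3 in red, with circles for the first and triangles for the last 4 arrays deposited and the mean ± SD of 4 arrays as a bar. The red points lie below all blue points for the brighter probe set of P4ha1, for P4ha2 and for the dimmer probe set of Plod2, and for Serpinh1 the blue triangles stand above all other points.

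The prolyl 3-hydroxylation genes were lower by a similar amount on each probe set, with a median log2 fold change of -0.20 and no probe set without overlap. P3h1, the enzyme that modifies a single proline of the type I collagen chains, read 454, 353, 342 and 373 in R26Pax3/Pax3 replicates 1, 3, 4 and 7 on its brighter probe set. In wild type replicates 2, 6, 8 and 11 it read 471, 472, 425 and 504. Only R26Pax3/Pax3 1 reached into the wild type range. The means were 381 ± 50.3 and 468 ± 32.2 (SD, n = 4 each), with a log2 fold change of -0.29 (SE 0.101). Its dimmer probe set read 346 ± 41.6 and 402 ± 42.0, a log2 fold change of -0.21 (SE 0.110), which was -0.12 without R26Pax3/Pax3 replicate 7.

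Crtap, the partner that forms a complex with P3h1 and the cyclophilin Ppib, read 1416, 1388, 1279 and 1315 in R26Pax3/Pax3 replicates 1, 3, 4 and 7. It read 1697, 1402, 1426 and 1661 in wild type replicates 2, 6, 8 and 11. Wild type 2 and 11 were high, and the other 2 wild type arrays lay close to R26Pax3/Pax3 1 and 3. The log2 fold change was -0.19 (SE 0.0827). P3h4, a relative without catalytic activity that joins P3h3 and Plod1 in a lysyl hydroxylation complex, read 585 ± 61.7 against 670 ± 44.2 (SD, n = 4 each), with a log2 fold change of -0.19 (SE 0.0913).

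The lysyl hydroxylases varied most among themselves of the 4 roles. Their 4 kept probe sets had a median log2 fold change of -0.10, and -0.05 without wild type replicate 11, and they spanned -0.55 to 0.11. Plod2 modifies lysines in the telopeptides, where cross-links start. Its dimmer probe set read 304, 370, 370 and 383 in R26Pax3/Pax3 replicates 1, 3, 4 and 7. In wild type replicates 2, 6, 8 and 11 it read 532, 565, 472 and 541. The highest R26Pax3/Pax3 array lay below the lowest wild type array. The means were 357 ± 35.5 and 527 ± 39.6 (SD, n = 4 each), 1.48-fold higher in wild type, with a log2 fold change of -0.55 (SE 0.0962).

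The brighter probe set of Plod2 showed a smaller difference. It read 859, 777, 873 and 874 in R26Pax3/Pax3 replicates 1, 3, 4 and 7 and 950, 965, 866 and 1014 in wild type replicates 2, 6, 8 and 11. Wild type 8 lay below 2 of the R26Pax3/Pax3 arrays. The means were 846 ± 46.2 and 949 ± 61.6 (SD, n = 4 each), with a log2 fold change of -0.16 (SE 0.0778). The probe sets of Plod2 thus gave different sizes, and neither is taken as that of the gene.

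Plod1, the lysyl hydroxylase of the helical region, read 245 to 312 in R26Pax3/Pax3 and 261 to 319 in wild type on its brighter probe set, with a log2 fold change of -0.04 (95% interval -0.27 to 0.20). Its sign turned without R26Pax3/Pax3 replicates 4 or 7 or without wild type replicate 11. The second probe set of Plod1 was the 1 member left out by the filter. It read 1.8 to 13.1 on all arrays, below the array medians, and whether it differs from background was not tested. Plod3, which hydroxylates lysines and also adds sugars to them, read 417, 389, 418 and 372 in R26Pax3/Pax3 replicates 1, 3, 4 and 7 and 382, 360, 342 and 388 in wild type replicates 2, 6, 8 and 11. The groups overlapped, and the log2 fold change was 0.11 (95% interval -0.07 to 0.30).

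Serpinh1, known as HSP47, binds folded procollagen and leaves it after export. Its brighter probe set read 4285, 4267, 4310 and 4232 in R26Pax3/Pax3 replicates 1, 3, 4 and 7. In wild type replicates 2, 6, 8 and 11 it read 5278, 4226, 4349 and 5287. Wild type 6 and 8 lay among the R26Pax3/Pax3 arrays, and wild type 2 and 11 stood above them. The coefficient of variation was 0.767% with the allele and 12.1% over the wild type arrays. The log2 fold change was -0.15 (SE 0.0827). The dimmer probe set, whose ID has the suffix that marks probes that may also read other transcripts, read 3471 ± 215 and 4034 ± 506 (SD, n = 4 each), with a log2 fold change of -0.21 (SE 0.0902).

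Where a gene had several kept probe sets, the log2 difference of the brighter minus the dimmer one was taken on each array. For Plod2 it was 1.21 ± 0.173 with the allele and 0.83 ± 0.0567 without it (SD, n = 4 each), 0.38 apart, with no overlap between genotypes. For P4ha1 it was 1.08 ± 0.0941 and 1.23 ± 0.102, for P3h1 0.13 ± 0.233 and 0.22 ± 0.0513, and for Serpinh1 0.30 ± 0.0847 and 0.25 ± 0.0474. The groups overlapped for these 3 genes, so of the 4 only the probe sets of Plod2 differed from each other without overlap between genotypes. How often this occurs among all genes with several probe sets was not computed. The values of Plod2 were known when the family was chosen, so nothing is read from this difference.

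**Figure D3:**
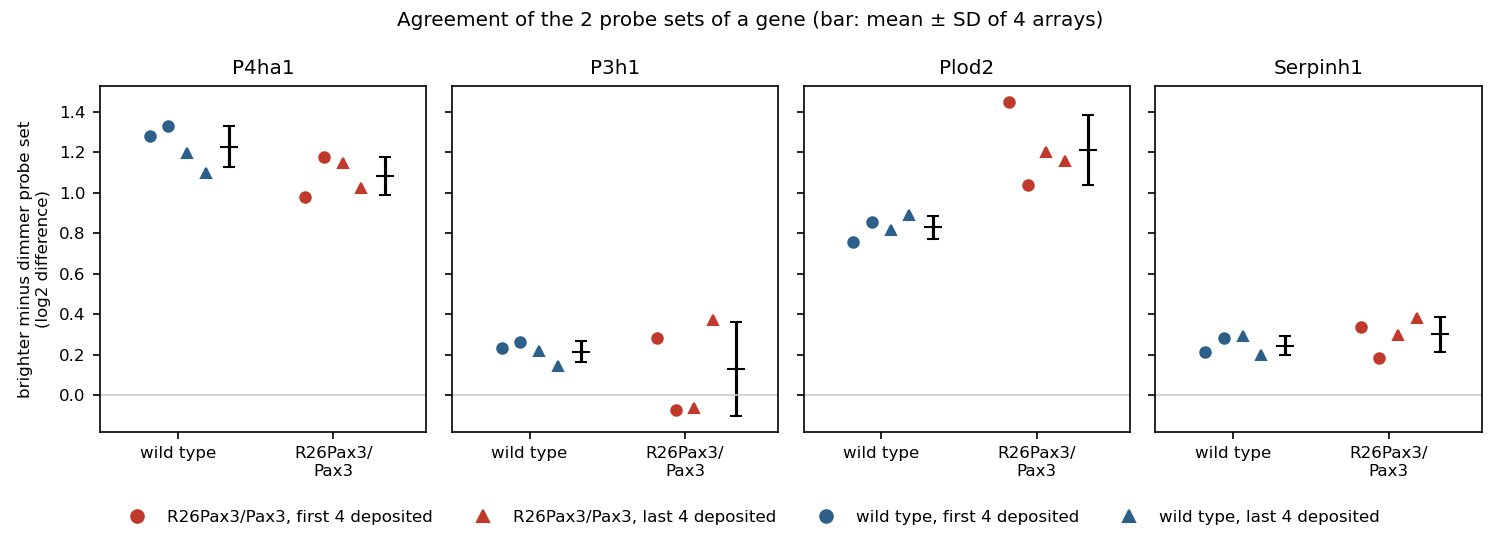
Log2 difference between the brighter and the dimmer probe set of a gene on each array (y axis), by genotype, with circles for the first and triangles for the last 4 arrays deposited and mean ± SD of 4 arrays as a bar. For Plod2 the R26Pax3/Pax3 arrays lie between 1.04 and 1.45 and the wild type arrays between 0.76 and 0.89, and for P4ha1, P3h1 and Serpinh1 the genotypes overlap.

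Within the sets of arrays the members fell into different patterns. For P4ha2 the differences were -0.55 in the first and -0.45 in the last 4 arrays, for the dimmer probe set of Plod2 -0.60 and -0.49, and for the brighter one of P4ha1 -0.30 and -0.50. The lower means of these 3 probe sets were thus seen in both sets. The dimmer probe set of P4ha1, however, had -0.073 and -0.43. P4ha3 had -0.25 and -0.17, and the brighter probe set of Plod2 had -0.16 and -0.17. Plod1 had 0.16 and -0.24, and Plod3 had 0.19 and 0.033. For Crtap the differences were -0.012 and -0.37, for P3h4 -0.023 and -0.37, and for the dimmer probe set of P3h1 -0.013 and -0.40. The 2 probe sets of Serpinh1 gave -0.0038 and -0.31, and -0.018 and -0.40. On these probe sets the lower mean came from the last 4 arrays. The brighter probe set of P3h1 had -0.16 and -0.43, so its lower mean was seen in both sets. Over the 14 the median was -0.05 in the first and -0.38 in the last 4 arrays, against 0.0058 and -0.0068 over all probe sets.

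The difference between the sets was tested with an interaction term, chosen after the data were seen. None of the 14 was called (limma, smallest adjusted p = 0.333), where 6 of 27021 probe sets, 0.0222%, were called. At an unadjusted p under 0.05 there were 5 of 14, those of Crtap, P3h4, Plod1 and Serpinh1, and 11.2% of all probe sets. The term for the sets themselves, last minus first 4 arrays with genotype in the fit, lay between -0.06 and 0.20 on the 14. None of these was called (limma, smallest adjusted p = 0.595), 0 were under an unadjusted p of 0.05, against 8.83% of all probe sets, and 0.148% of all were called.

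**Figure D4:**
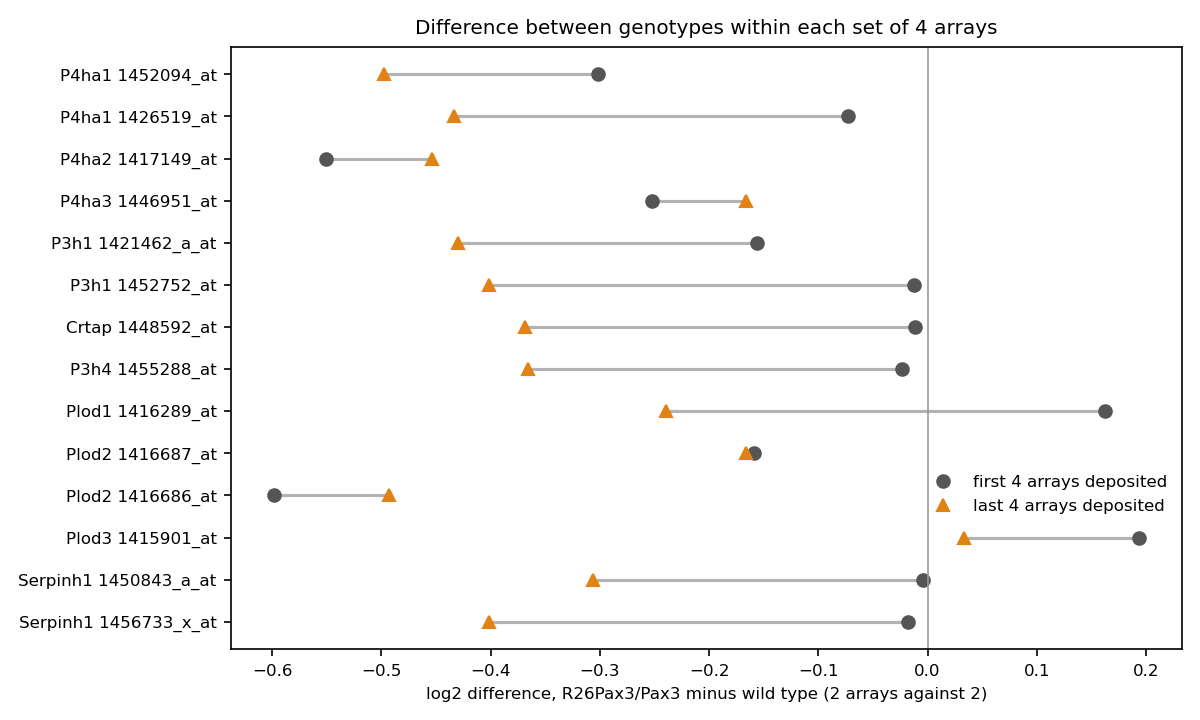
Log2 difference between genotypes (x axis, R26Pax3/Pax3 minus wild type, 2 arrays against 2) within the first 4 arrays deposited (circles) and the last 4 (triangles), a row per probe set. P4ha2 and both probe sets of Plod2 have similar values in both sets, while Crtap, P3h4 and Serpinh1 lie near 0 in the first set and between -0.31 and -0.40 in the last.

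The other genes of the pathway were read from the same fit. Of 14 listed partners and export factors, 13 had a probe set of their own and Fkbp10 was not analysed here. All 13 had lower means on their brightest probe sets, with a median log2 fold change of -0.08, and 0 were called by limma (1 at an unadjusted p under 0.05). By set, 6 of 13 were lower in the first and 13 of 13 in the last 4 arrays. Hspa5, the general chaperone BiP, had a log2 fold change of -0.02 (SE 0.0861) on its brightest probe set. Its other kept probe sets gave 0.14 (SE 0.197), a higher mean, and -0.0017 (SE 0.0827). P4hb, the shared beta subunit of the prolyl 4-hydroxylases, read 4284 ± 184 against 4531 ± 321 (SD, n = 4 each), with a log2 fold change of -0.08 (SE 0.0695). Ppib, the cyclophilin of the P3h1 complex, had -0.04 (SE 0.101), and Sec23a, a coat protein of export vesicles, had -0.08 (SE 0.0854).

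Of 11 collagen chains that the enzymes modify, 10 had lower means, with a median log2 fold change of -0.13, and 0 were called by limma (5 at an unadjusted p under 0.05, 4 of them lower). By set, 4 of 11 were lower in the first and 10 of 11 in the last 4 arrays. On their brightest probe sets, the fibrillar chains Col1a2, Col3a1, Col1a1 and Col5a2 had log2 fold changes of -0.13, -0.07, -0.33 and -0.13. Col1a1 read 6208 ± 961 against 7800 ± 1017 (SD, n = 4 each), with 0.0054 in the first and -0.67 in the last 4 arrays. The other kept probe sets of these chains also had lower means. Col1a2 had -0.24 and -0.29, Col3a1 -0.19, Col1a1 -0.28 and Col5a2 -0.22. Lower in both sets were the dimmest of Col1a2 (-0.31 and -0.26), Col3a1 (-0.21 and -0.17) and Col5a2 (-0.17 and -0.28). For the other of Col1a2 (-0.00020 and -0.49) and that of Col1a1 (0.26 and -0.83) the lower mean came from the last set. In the first set that of Col1a1 was higher.

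The hypoxia response genes, each read by its brightest probe set, had means on both sides of wild type. Of 15 listed, 14 passed the filter, and 5 were lower and 9 higher, with a median log2 fold change of 0.05. None was called by limma, and 1 was under an unadjusted p of 0.05. The glycolytic enzymes Ldha, Pgk1 and Aldoa had -0.09, -0.03 and -0.06 and the glucose transporter Slc2a1 had 0.10, each on its brightest probe set. Other kept probe sets gave 0.02 and 0.29 for Pgk1, -0.13 to 0.02 for Aldoa, and 0.12 and 0.15 for Slc2a1. The brightest probe set of Slc2a1 had -0.10 in the first and 0.29 in the last 4 arrays. Its other probe sets had 0.32 and -0.09, and 0.39 and -0.10. The summed signal of the list ranged from 12397 to 13161 in R26Pax3/Pax3 and from 12318 to 12845 in wild type.

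Markers of other cell types were read beside these differences, each gene by its brightest probe set. In bulk tissue, fewer cells of a type and less RNA per cell cannot be told apart. Of 11 osteoblast markers, 8 were measured, since Runx2, Spp1 and Bglap had no probe set of a single symbol. All 8 were lower, with a median log2 fold change of -0.40. By set, 7 of 8 were lower in the first and 8 of 8 in the last 4 arrays, with medians of -0.37 and -0.51. Their summed signal ranged from 7530 to 8906 in R26Pax3/Pax3 and from 8834 to 11462 in wild type. None was below the array median on all arrays. Ibsp was the largest part of this sum, at 5229 against 5587. Its log2 fold change of -0.09 was the smallest in size of the 8, which ran from -0.78 to -0.09. At an unadjusted limma p under 0.05 there were 5 of the 8, all lower, against 2.44% of all probe sets. Lower without overlap were 3 of the 8, against 1.34% of all probe sets. Of 10 cartilage markers 9 passed the filter and 7 were lower, with sums of 889 to 2028 and 1161 to 2777. Comp was below the array medians throughout. The highest cartilage sum was that of wild type 6, and the other 3 wild type arrays, at 1161 to 1474, lay within the R26Pax3/Pax3 range. Of 10 skeletal muscle markers 9 passed and 9 were lower, with sums of 919 to 6947 and 3083 to 7959, and Ckm was below the array medians throughout. The lowest muscle sum was that of R26Pax3/Pax3 7, and the other 3 arrays of the genotype, at 3372 to 6947, lay within the wild type range. By set, 4 of 9 muscle markers were lower in the first and 9 of 9 in the last 4 arrays. The part of these cells in the family's differences was not tested. Of 10 epithelial markers 7 were higher (sums 5431 to 7942 and 5371 to 6677), of 6 endothelial markers 5 (1004 to 1148 and 1024 to 1136), and of 5 macrophage markers 4 (1038 to 1475 and 1019 to 1253). All 5 neuronal markers (491 to 1092 and 172 to 1147) and all 5 red cell markers measured (5084 to 7776 and 4892 to 5871) had higher means. The low neuronal sums were those of wild type 2 and 11, at 172 and 185, while wild type 6 and 8 read 1147 and 595. The median difference of the neuronal markers was 0.15 in the first and 1.65 in the last 4 arrays. At an unadjusted p under 0.05 the interaction term held for 5 of 5, against 11.2% of all probe sets, with none called by limma. All 5 read lowest on wild type 2 and 11, so they are not separate observations. Wild type 2 and 11 are also the wild type arrays of the last set, in which Crtap, P3h4 and Serpinh1 had their lower means, and the part of this in the result was not tested. None of these markers was called by limma.

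**Figure D5:**
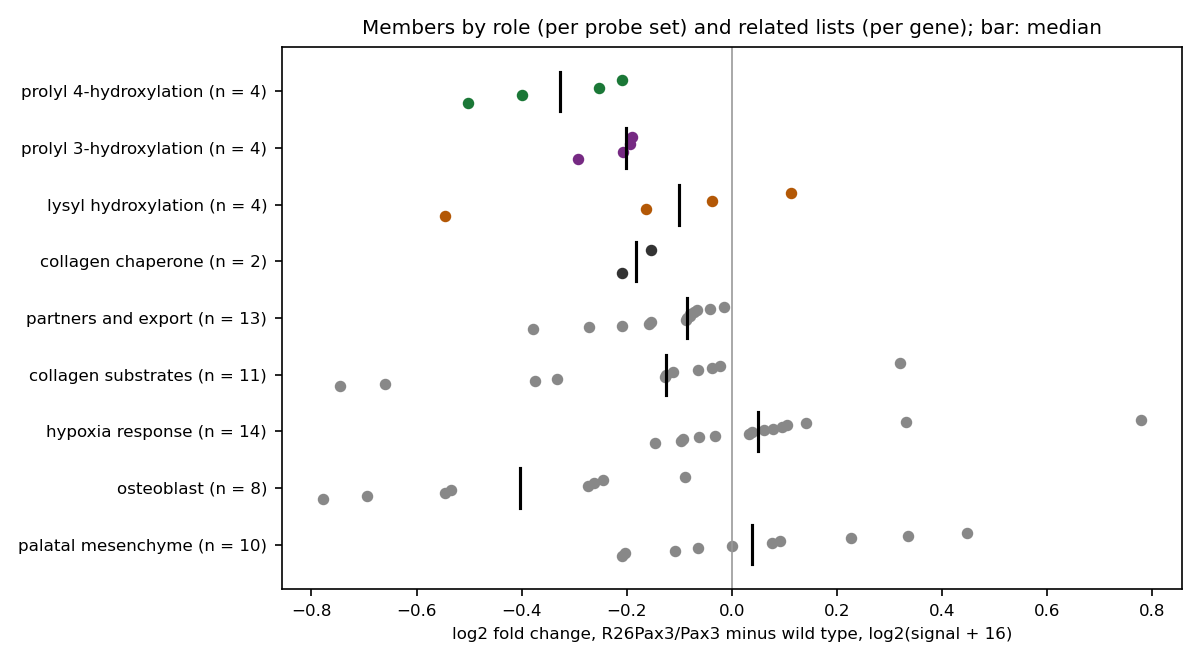
Log2 fold change (x axis, R26Pax3/Pax3 minus wild type on log2(signal + 16)) of the member probe sets by role and of the genes of related lists, a point each, with the median as a bar. The medians run from -0.33 for prolyl 4-hydroxylation to -0.10 for lysyl hydroxylation, against 0.05 for hypoxia response, -0.40 for osteoblast and 0.04 for palatal mesenchyme genes.

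The genes most like Serpinh1 and Plod2 were found by Pearson's r over the 8 arrays, after the mean of each genotype was subtracted, among 14081 probe sets of other genes with a mean signal of at least 100. They are a description of these arrays, which share their tissue and the sets above. For the brighter probe set of Serpinh1 they were Rnf26, Sec62, Pigf, Cdr2 and Pelo, with r between 0.970 and 0.973, and 168 probe sets reached 0.9. For that of Plod2 they were Ttc9c, Taf12, Erp44, 1700094D03Rik and Rbp4, with r between 0.968 and 0.981, and 46 probe sets reached 0.9. No other gene of the family was among these, and the closest was Crtap to Serpinh1, with r = 0.896.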

How the data were processed

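Total RNA of 8 palatal shelf samples, 4 per genotype, was hybridised to Affymetrix arrays from 6 µg each, per the labels' protocols. Each value is the linear intensity of a probe set as deposited by the authors, and MAS5 is the tool in the submitters' processing notes. Its version and a genome build are not given in the sources used here. MAS5 scales arrays to alike brightness, which hides a change shared by most genes.

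Control probe sets (64) and those at or below the 40th percentile of mean signal were left out, which kept 27021. Values were transformed to log2(signal + 16), so folds of dim genes are understated, and the genotype term was fitted in R 4.3.3 with limma 3.58.1 (lmFit, eBayes with intensity trend). P-values were adjusted over all kept probe sets. The script was tested on simulated data. Genes were named from the platform annotation where a probe set had a single symbol, and 22778 kept probe sets did.

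The members and lists were chosen with earlier results of these data known. Named genes are all members, the label checks, the 4 members of each pathway list (partners and export, collagen substrates, hypoxia response) with the highest signal and any called, and the 5 genes most like Serpinh1 and Plod2. Outside this rule, some markers are named as examples of their list, as below the array medians, or as lacking a single-symbol probe set. Ibsp is named as the largest part of the osteoblast sum. Creb3l1, Col11a1, Col11a2, Col5a3 and Ddit4 were picked after their values were seen. Marker lists covered palatal mesenchyme, osteoblast, cartilage, epithelium, skeletal muscle, endothelium, neuron, red cell and macrophage genes. Alternatives changed the pseudocount, filter, scaling, trend, deposit order as a block, the grouping of P3h4, 1 probe set per gene, and left out each array in turn. The number of arrays limits the precision.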

Additional observations from a re-analysis of the deposited data

Results flagged for a closer look

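Of 52 groups of 4 arrays examined, for the members and the named pathway genes, 4 had an array far from the other 3, and chance flags about 1 in 20. On the dimmer probe set of P3h1 R26Pax3/Pax3 replicate 7 read 284.5, below the other 3 at 359 to 372. On the brighter probe set of Plod1 wild type replicate 11 read 318.5, above the other 3 at 261 to 267. On the brighter probe set of Plod2 R26Pax3/Pax3 replicate 3 read 777.1, below the other 3 at 859 to 874. On the dimmer probe set of Plod2 R26Pax3/Pax3 replicate 1 read 304.4, below the other 3 at 370 to 383.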

How the results depend on the processing

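The 14 kept probe sets of the family were refitted under 16 alternatives, and 13 kept their sign in all of them, while 0 were called in any. The exception was Plod1, with -0.10 to 0.024 when 1 array was left out. The family's count of lower probe sets was 12 to 13 of 14 when 1 array was left out, and its median -0.25 to -0.15. The medians by role were then -0.40 to -0.26 for prolyl 4-hydroxylation, -0.25 to -0.16 for prolyl 3-hydroxylation, -0.14 to -0.05 for lysyl hydroxylation and -0.23 to -0.12 for Serpinh1. With P3h4 grouped with the lysyl hydroxylases their median was -0.16, by the change of members. The number of probe sets called in the whole table was 4 to 9 when 1 array was left out, with 9 without R26Pax3/Pax3 replicate 3. The cause was not tested. No paired analysis was made. The genotypes share no replicate number, and these numbers do not show which samples share a litter, so litter is not in the fit. No detection call was used, so whether signals below the array medians, as on the second probe set of Plod1, differ from background was not tested.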

Other observations

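A few genes beside the family were picked after their values were seen. Creb3l1, a transcription factor that drives collagen genes in osteoblasts, had the lowest log2 fold change of the partner list. It read 331 ± 26.5 with the allele against 442 ± 106 without it (SD, n = 4 each), with a log2 fold change of -0.38 (limma adjusted p = 0.968). Its groups did not overlap, and the differences were -0.08 in the first and -0.68 in the last 4 arrays. Among the 11 collagen chains, each read by its brightest probe set, 3 did not overlap, 2 of them lower. Of all probe sets, 2.73% did not overlap and 1.34% were lower without overlap, and nothing is read from this count. Col11a1 had means of 1563 and 2030 (log2 fold change -0.38, limma adjusted p = 0.470), with -0.31 in the first and -0.44 in the last 4 arrays. Col11a2 had means of 167 and 275 (log2 fold change -0.66, limma adjusted p = 0.497) and Col5a3 had means of 56.7 and 42.3 (0.32, limma adjusted p = 0.995). Ddit4, a stress-induced inhibitor of mTOR signalling, had the highest log2 fold change of the hypoxia list. It read 964 ± 67.1 against 585 ± 219 (SD, n = 4 each), with a log2 fold change of 0.78 (limma adjusted p = 0.669), higher in all 4 R26Pax3/Pax3 arrays than in any wild type array.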
